A study of Arabidopsis thaliana with 24 samples.

Results

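The response of Arabidopsis shoots to the first hour of water deficit was read from 6 of the study's 24 libraries, 3 from shoots kept for 1 h in polyethylene glycol (PEG) and 3 from shoots kept for 1 h in water. The PEG group was placed in 30% PEG, whose water potential the labels put at -2.0 MPa, and the other group differs from it, by the labels, only in the liquid. Both groups were Arabidopsis thaliana seedlings, 7 d old, of a line written ulox or µlox, a name the labels leave undefined, and wild-type seedlings were not analysed here. The seedlings had grown on MS medium with sucrose at 21 °C, with the light on for 16 h and off for 8 h. Each biological replicate (A, B and C) pooled 30 to 50 seedlings, and shoots were separated from roots after the treatment. RNA was counted by MARS-seq, which reads 1 tag near the 3′ end of each transcript, so that levels of different genes are comparable without a correction for length. The water libraries carry time 0 in their titles and 1 h in their source names, and the source names were used. The other libraries used below are shoots after 2 h and 3 h in PEG and roots after 1 h in PEG or in water, with 3 of each.

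PEG of high molecular weight stays outside the cell wall and draws water from the tissue, so it mimics drying soil. Plant cells answer such a loss with the hormone abscisic acid (ABA), which binds PYR/PYL receptors, switches off PP2C phosphatases and so frees SnRK2 kinases to activate ABF factors at promoter elements called ABREs. A second route, independent of ABA, runs through DREB and CBF factors that bind the DRE element, and both lead to proteins that protect membranes and enzymes from drying.

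The PEG libraries held 3058806, 4533469 and 3274196 counts and the water libraries 2530789, 1692884 and 3257951, in the order A, B and C that is kept below for every gene. RBCS1A, a small subunit of Rubisco that marks green tissue, had 26938, 25429 and 25220.3 CPM in PEG, against 31683, 31368 and 30509 CPM in water, where CPM is a count scaled to a common library size, with the total adjusted by TMM. On plain library totals without TMM, the 16 root cell type markers summed to 43.1 to 68.4 CPM in PEG and 62.0 to 132 CPM in water, against 1243 to 1742 CPM in the 3 root libraries of the same PEG time. In these bulk samples fewer cells of a type and less RNA per cell cannot be told apart. Between 2 and 6 of these markers were at 0 in a PEG library and between 4 and 7 in a water library. The root glucosidase PYK10, one of the 16, was at 15.0, 23.2 and 16.2 CPM in PEG, against 73.5, 24.8 and 24.9 CPM in water on the same totals, and without it the other markers summed to 26.9 to 45.2 CPM in PEG and 37.2 to 58.1 CPM in water. On the first principal component of the 500 most variable genes in shoot, with 52.7% of the variance, the PEG 1 h libraries sat between 1.61 and 6.25 and the water libraries between -32.4 and -25.5. Libraries of one group also differed from each other along gene length: the rank correlation across 9161 genes between a gene's deviation from its group mean and its length was 0.23, 0.26 and -0.39 in PEG and 0.19, 0.26 and -0.40 in water, so both C libraries leaned towards short genes. The correlation is across genes, which are not independent replicates.

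After 1 h in PEG, 1138 of 9207 tested genes (12.4%) differed from water at an adjusted p under 0.05, with edgeR's quasi-likelihood test. Of these, 663 were higher in PEG (7.2% of the genes tested) and 475 were lower (5.16%). Scaled by library totals, 556 were higher and 566 lower, with a median of all genes of log2 -0.09, so the balance of rises over falls depended on the scaling. The median change of all genes tested was log2 -0.0037, and 2339 genes had an unadjusted p under 0.05. The median change among the called genes was log2 1.14 for the rises and -1.15 for the falls. Large changes were mostly rises, as 109 rises but 55 falls reached an absolute log2 of 2, and 29 rises but 6 falls reached 3. With a further requirement of an absolute log2 of at least 1, 694 genes remained (7.54%), 408 higher (4.43%) and 286 lower (3.11%). The PEG and water libraries did not overlap for 652 of the 663 rises and 439 of the 475 falls, beside 25.3% of all genes tested.

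**Figure D1:**
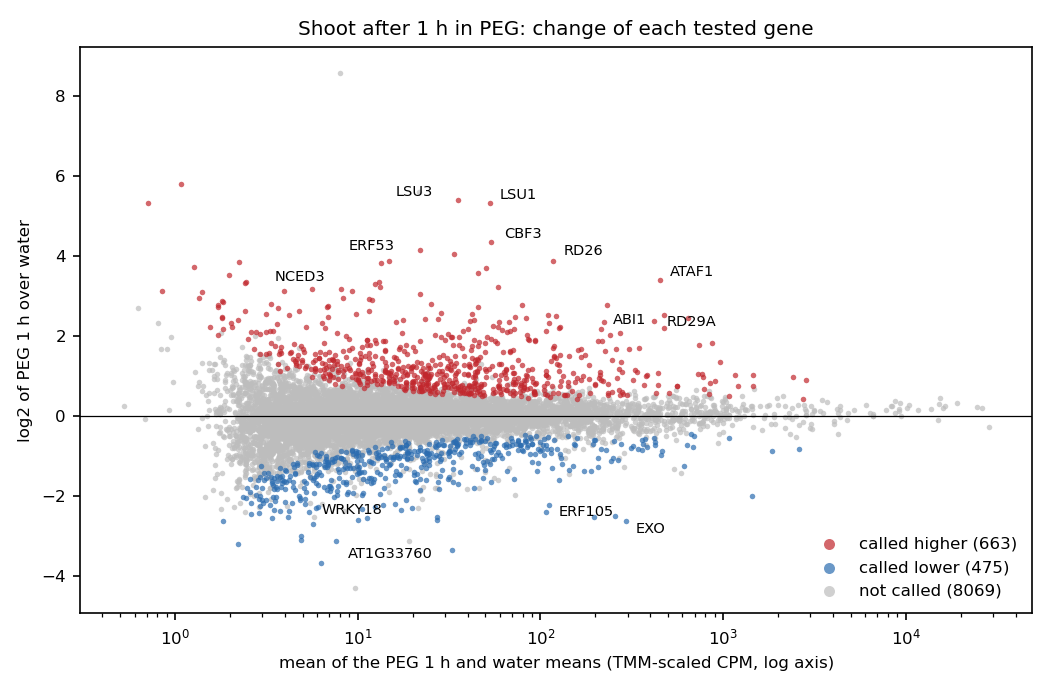
The log2 change in shoot after 1 h in PEG against 1 h in water (vertical axis) is plotted against the mean level of each of 9207 genes (TMM-scaled CPM, log axis). Red points are the 663 genes called higher in PEG, blue points the 475 called lower and grey points the rest; the rises reach further from 0 than the falls at moderate and high levels.

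More of the rises than of the falls kept their call when single libraries were left out. In 6 fits that each omitted 1 PEG or water library, 403 of the 663 rises (60.8%) and 121 of the 475 falls (25.5%) were called every time. The number of falls was 155 without water library A and 260 without PEG library A, and 635 without water library C, and 439 genes reached an absolute log2 of 1 without water library A. The number of rises ran from 451 to 703 over the same fits. Fitted on the 6 libraries alone, without the later shoot libraries, the counts were 399 rises and 212 falls. In the authors' deposited values for this comparison, 433 genes had an adjusted p under 0.05 and an absolute log2 of at least 1, limits chosen here. Of these, 424 were tested here, all with the same direction of change, and 421 were called. Both come from the same counts.

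The 12 largest rises and 12 largest falls were taken among called genes that averaged at least 20 counts and did not overlap between groups. LSU1, LSU2 and LSU3 belong to the RESPONSE TO LOW SULFUR family, whose members are induced in sulfur-starved plants. They were among these 12 largest rises, and LSU3 and LSU1 led them. LSU3 had 40.7, 79.4 and 87.1 CPM in PEG, against 1.12, 2.37 and 1.59 CPM in water (log2 5.40 ± 0.43 SE, adjusted p = 3.06e-07). LSU1 had 56.1, 115 and 137 CPM in PEG, against 1.86, 3.55 and 2.55 CPM in water (log2 5.32 ± 0.42 SE, adjusted p = 6.36e-07), and LSU2 had 31.4, 64.8 and 93.0 CPM in PEG, against 2.61, 5.33 and 3.83 CPM in water (log2 4.05 ± 0.39 SE, adjusted p = 3.72e-06). All 3 were close to silent in water, and in each of them the lowest PEG library, A, stood well above the highest water library, B. Transcription factors made up much of the rest. CBF3, which binds the DRE element and is best known from cold, had 103, 92.1 and 113 CPM in PEG, against 5.22, 5.92 and 4.15 CPM in water (log2 4.36 ± 0.40 SE, adjusted p = 3.21e-06). ERF53, a factor of the same family, had 31.1, 38.5 and 54.1 CPM in PEG, against 1.86, 2.96 and 2.23 CPM in water (log2 4.15 ± 0.28 SE, adjusted p = 3.15e-08). Neither factor overlapped between groups, as the rule for picking the 12 required.

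3 NAC factors were among the 12 largest rises, and the most abundant of the 12 was one of them. ATAF1 had 704, 694 and 1074 CPM in PEG, against 67.5, 66.9 and 96.6 CPM in water (log2 3.41 ± 0.21 SE, adjusted p = 3.15e-08). RD26, an ABA-responsive NAC factor named for its induction by drying, had 178, 171 and 313 CPM in PEG, against 11.9, 13.0 and 19.5 CPM in water (log2 3.87 ± 0.26 SE, adjusted p = 3.15e-08). NAC055 had 18.4, 29.6 and 35.2 CPM in PEG, against 1.12, 2.37 and 2.23 CPM in water (log2 3.87 ± 0.35 SE, adjusted p = 4.67e-07). In all 3 the lowest PEG library was at least several times the highest water library, and PEG library C was the highest. The remaining 4 carry locus codes only. AT5G03230, annotated as a senescence regulator of unknown function, had 77.5, 68.6 and 134 CPM in PEG, against 6.71, 7.11 and 7.34 CPM in water (log2 3.71 ± 0.29 SE, adjusted p = 9.40e-08). AT2G44130, a kelch-repeat F-box gene, had 69.8, 65.6 and 118 CPM in PEG, against 5.96, 6.51 and 8.29 CPM in water (log2 3.57 ± 0.25 SE, adjusted p = 3.26e-08). The uncharacterised AT2G15020 and AT5G54585 rose by log2 3.82 and 3.36. All 12 stayed called whichever library was left out.

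**Figure D2:**
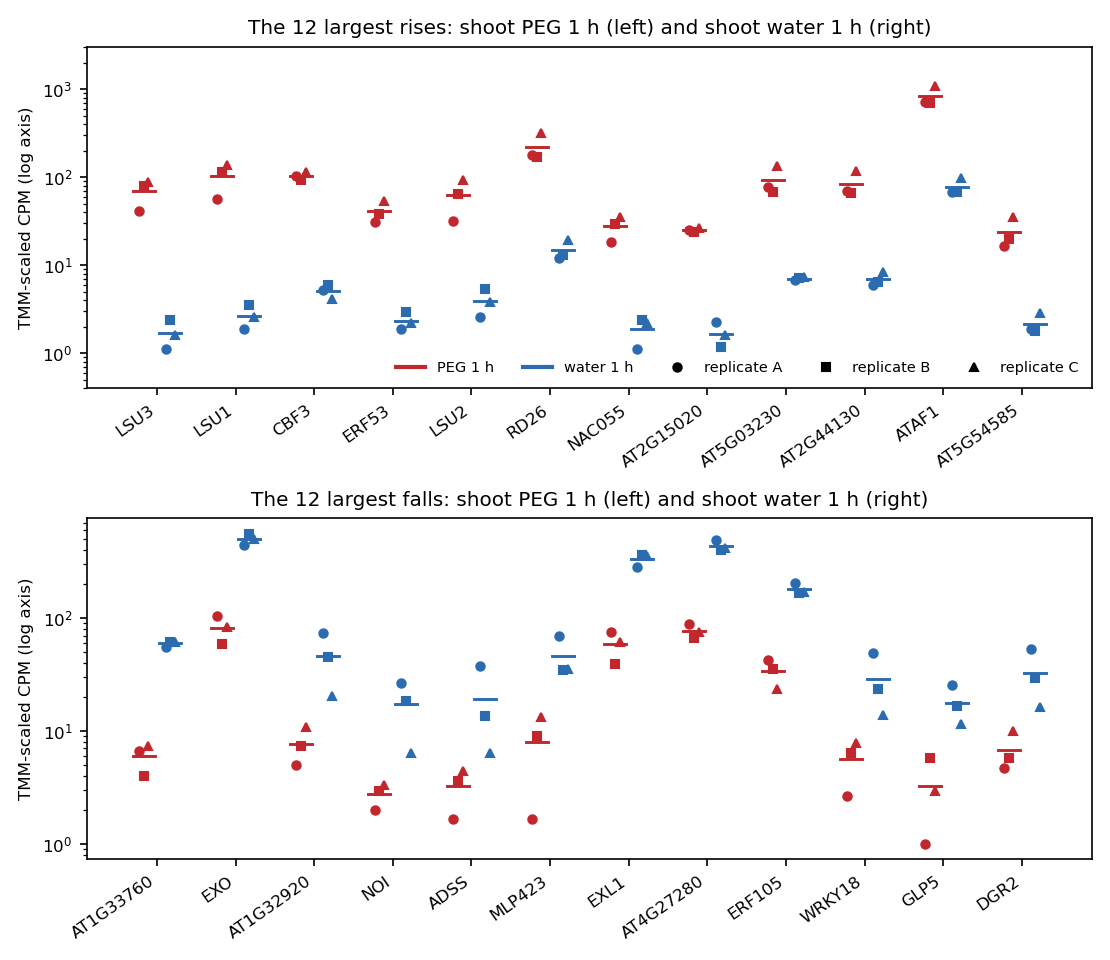
Levels (TMM-scaled CPM, log axis) of the 12 largest rises (top) and the 12 largest falls (bottom) in each shoot library, with PEG 1 h to the left in red and water 1 h to the right in blue. Symbols mark replicates A, B and C and short lines the group means of 3. Genes were picked to have no overlap between groups. In 7 of the falls, such as NOI and ADSS, the water libraries spread widely, with A highest.

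In 5 of the 12 largest falls the replicates of each group lay close together. AT1G33760, a factor of the AP2/ERF family, had 6.68, 4.02 and 7.41 CPM in PEG, against 55.9, 61.6 and 61.2 CPM in water (log2 -3.35 ± 0.26 SE, adjusted p = 8.05e-08), the largest fall among called genes that averaged at least 20 counts and did not overlap between groups. EXORDIUM (EXO), a wall protein that promotes growth under brassinosteroid, had 104, 59.5 and 83.4 CPM in PEG, against 448, 561 and 502 CPM in water (log2 -2.62 ± 0.20 SE, adjusted p = 7.71e-08). Its relative EXL1, which is linked to carbon starvation, had 74.8, 39.2 and 61.5 CPM in PEG, against 286, 361 and 355 CPM in water (log2 -2.52 ± 0.26 SE, adjusted p = 5.66e-06). In these genes every PEG library lay far below every water library. AT4G27280, a calcium-binding EF-hand protein, had 89.2, 66.5 and 74.8 CPM in PEG, against 490.4, 403 and 416 CPM in water (log2 -2.51 ± 0.20 SE, adjusted p = 1.11e-07). ERF105, a cold- and stress-related ethylene response factor, had 42.7, 35.6 and 23.7 CPM in PEG, against 203, 165 and 171 CPM in water (log2 -2.396 ± 0.22 SE, adjusted p = 7.19e-07).

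The other 7 of the 12 largest falls were scattered within the water group. WRKY18, a defence factor, had 2.67, 6.35 and 7.78 CPM in PEG, against 48.8, 23.7 and 13.7 CPM in water (log2 -2.35 ± 0.52 SE, adjusted p = 0.0113). MLP423, of the major latex protein family, had 1.67, 9.11 and 13.3 CPM in PEG, against 68.9, 34.9 and 35.4 CPM in water (log2 -2.54 ± 0.64 SE, adjusted p = 0.03), and ADSS, the adenylosuccinate synthase of purine synthesis, had 1.67, 3.60 and 4.45 CPM in PEG, against 37.6, 13.6 and 6.38 CPM in water (log2 -2.56 ± 0.65 SE, adjusted p = 0.0237). NOI, of the RIN4 family, had 2.00, 2.96 and 3.33 CPM in PEG, against 26.8, 18.4 and 6.38 CPM in water (log2 -2.59 ± 0.68 SE, adjusted p = 0.026). In all 4 water library A was the highest and PEG library A the lowest of the 6. AT1G32920, GLP5 and DGR2 likewise had PEG A lowest and water A highest, and they had log2 -2.595, -2.33 and -2.3001. The calls of NOI and ADSS were lost without any 1 of PEG A, B or C or water A, with adjusted p from 0.0777 to 0.124, and NOI also without water B (adjusted p = 0.0649). MLP423 was lost without PEG A, PEG B or water A (adjusted p = 0.0543, 0.0829 and 0.105).

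Known groups of genes were then read against the whole table. Across 35 lists, 381 different genes were tested, of which 94 (24.7%) were higher and 34 (8.92%) lower, beside 7.2% and 5.16% of all genes tested, and 133 further list genes were absent from the table or too low to test. Some genes stand in more than 1 list. Lists and members were chosen with earlier results of these data known, so these shares cannot test for an excess over all genes. Examples within lists were picked after their values were seen, beside the 2 members that had the lowest adjusted p in their list.

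**Figure D3:**
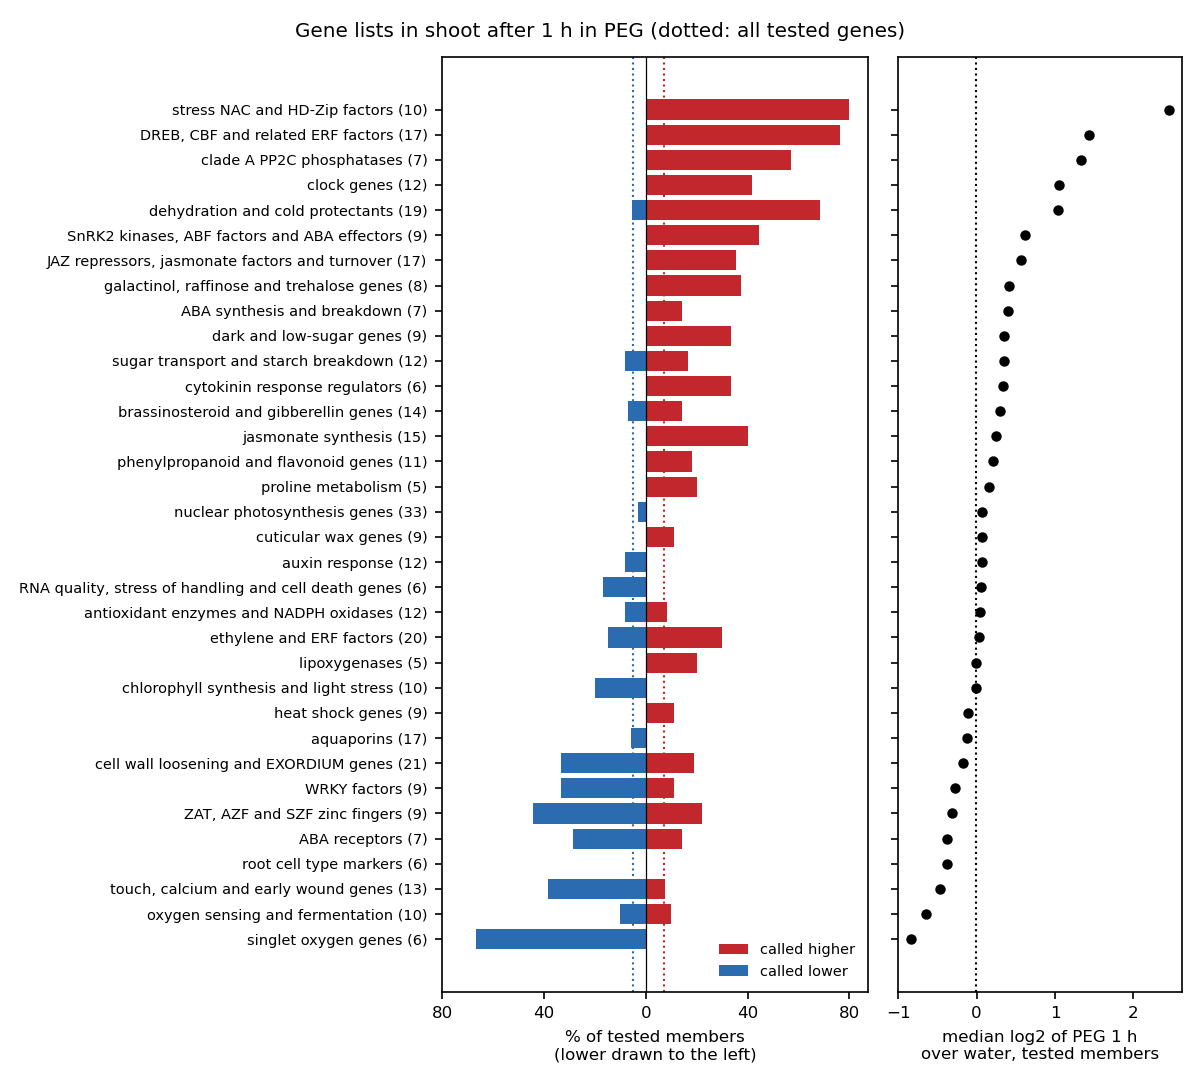
Left, the share of tested members called higher (red, to the right) and lower (blue, to the left) in PEG 1 h against water 1 h for 34 lists in shoot, with the number tested in brackets and dotted lines at the shares for all 9207 genes. Right, the median log2 change of the tested members; stress NAC and HD-Zip factors, DREB factors and PP2C phosphatases stand highest and singlet oxygen genes lowest.

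Stress NAC and HD-Zip factors had the highest list median, with 8 of 10 tested members higher, none lower and a median of log2 2.46, beside -0.0037 for all genes tested. Beside RD26, ATAF1 and NAC055, NAC032 averaged 106 ± 50.9 CPM in PEG and 11.1 ± 3.84 CPM in water (log2 3.22 ± 0.31 SE, adjusted p = 2.60e-06). NAC102, which acts in stress and low oxygen, had 325, 347 and 541 CPM in PEG, against 61.9, 58.0 and 57.1 CPM in water (log2 2.77 ± 0.20 SE, adjusted p = 3.28e-08). Among the HD-Zip factors, HAT22 rose by log2 2.14, HB-7, an ABA-induced gene, by 1.31 and HB6 by 1.18. HB-12 was at log2 1.01 with an adjusted p of 0.179 and HB5 at 0.42 (adjusted p = 0.07). All 8 calls held in each of the 6 fits with a library left out.

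DREB, CBF and related ERF factors rose nearly as a family, with 13 of 17 tested members higher, none lower and a median of log2 1.43. CBF1 had 74.5, 57.2 and 107 CPM in PEG, against 8.57, 8.88 and 17.2 CPM in water (log2 2.72 ± 0.38 SE, adjusted p = 3.38e-04), and CBF2, already the most abundant of the trio in water, had 256, 196 and 337 CPM in PEG, against 98.4, 98.9 and 128 CPM in water (log2 1.27 ± 0.29 SE, adjusted p = 0.00911). The CBF2 call was lost without PEG library C (adjusted p = 0.0606). RAP2.4, an ERF-family factor of drought and light responses, had 501, 403 and 426 CPM in PEG, against 122, 105 and 89.6 CPM in water (log2 2.07 ± 0.16 SE, adjusted p = 8.76e-08), and its close relative RAP2.4B rose by log2 1.64. DEAR2 and DEAR3, which combine a DREB domain with a repressor motif, rose by log2 1.97 and 0.91. DREB2A, the classic dehydration factor, was at log2 1.96 with an adjusted p of 0.138, and DDF1, DDF2 and CBF4 also missed the threshold. In all, 10 of the 13 calls held in every fit with a library left out, the others being CBF2, DREB2B, held only without PEG A (adjusted p = 0.0655 to 0.137 in the other fits), and DREB2C, lost without PEG C or water A (adjusted p = 0.0778 and 0.164). How reads shared by near-identical copies were counted is not given in the sources used here, so the split between CBF1, CBF2 and CBF3, as between AOC1 to AOC3, KIN1 and KIN2, COR15A and COR15B, and the LSU genes, is uncertain.

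The ABA route changed at several of its steps. For synthesis, NCED3, the rate-limiting dioxygenase of ABA production under drying, had 14.7, 15.7 and 13.7 CPM in PEG, against 2.98, 0.592 and 0.957 CPM in water (log2 3.18 ± 0.35 SE, adjusted p = 4.11e-06) and was the only one of 7 tested genes of ABA synthesis and breakdown to be called. The PEG libraries of NCED3 lay close together and several times above the highest water library, A. The epoxidase ABA1 had 137, 114 and 112 CPM in PEG, against 78.6, 124 and 75.6 CPM in water and overlapped between groups (log2 0.40, adjusted p = 0.155).

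ABA receptors moved in opposite directions, with 1 of 7 tested higher and 2 lower. PYL9 had 19.4, 13.3 and 26.7 CPM in PEG, against 6.34, 4.14 and 5.42 CPM in water (log2 1.83 ± 0.28 SE, adjusted p = 1.95e-04). PYL4, the most abundant receptor gene in water, had 394, 278 and 256 CPM in PEG, against 633, 625 and 577 CPM in water (log2 -0.98 ± 0.18 SE, adjusted p = 0.00113), and PYL6 had 56.1, 54.6 and 79.7 CPM in PEG, against 104, 104 and 159 CPM in water (log2 -0.96 ± 0.20 SE, adjusted p = 0.00318). PYL1, PYL2, PYL5 and PYR1 were at log2 -0.72 to -0.25 and not called. PYL4, PYL6 and PYL9 held with each library left out.

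The clade A PP2C phosphatases, which ABA receptors inhibit, were higher for 4 of 7 tested members and lower for none, with a median of log2 1.33. ABI1 had 344, 313 and 398 CPM in PEG, against 71.9, 80.5 and 78.8 CPM in water (log2 2.19 ± 0.15 SE, adjusted p = 3.26e-08), and PP2CA had 138, 104 and 165 CPM in PEG, against 30.2, 34.3 and 35.4 CPM in water (log2 2.02 ± 0.19 SE, adjusted p = 8.70e-07). ABI2 averaged 11.1 ± 2.76 CPM in PEG and 4.31 ± 0.844 CPM in water (SD, n = 3 each; log2 1.31). HAI2 had 16 counts over the PEG libraries and 0 over the water libraries, which is at least 3.84-fold higher against a floor of 3 counts over the group; its call was lost without water library A (adjusted p = 0.0504). With HAI2 at that bound the median of the list was again log2 1.33. Downstream, 4 of 9 tested kinases, ABF factors and effectors were higher and none lower. ABF1 had 33.4, 31.1 and 38.2 CPM in PEG, against 12.7, 15.4 and 14.7 CPM in water (log2 1.26 ± 0.17 SE, adjusted p = 5.66e-05), and AFP3, an inhibitor of ABI5-type factors, had 12.7, 11.4 and 13.3 CPM in PEG, against 4.84, 5.92 and 5.42 CPM in water (log2 1.21 ± 0.23 SE, adjusted p = 0.00187). ABF2 rose by log2 1.11 and ABF4 by 0.59, the ABF4 call being lost without PEG A, water A or water C (adjusted p = 0.111, 0.108 and 0.121). ABF3 was at log2 0.24 and was not called.

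Proteins that protect cells from drying and cold were higher for 13 of 19 tested members and lower for 1, with a median of log2 1.04. RD29A, the marker of combined DRE and ABRE activity, had 586, 668 and 854 CPM in PEG, against 111, 168 and 131 CPM in water (log2 2.37 ± 0.18 SE, adjusted p = 8.05e-08). COR15A, a chloroplast protectant, had 92.5, 112 and 220.5 CPM in PEG, against 19.8, 27.2 and 30.9 CPM in water (log2 2.44 ± 0.28 SE, adjusted p = 1.42e-05), and COR15B had 21.4, 34.5 and 61.9 CPM in PEG, against 4.47, 5.33 and 4.47 CPM in water (log2 3.04 ± 0.35 SE, adjusted p = 1.59e-05). The dehydrin XERO2 had 109.9, 118 and 179.7 CPM in PEG, against 30.6, 33.8 and 41.5 CPM in water (log2 1.93 ± 0.19 SE, adjusted p = 1.30e-06). In these genes PEG library C was the highest of the 3 and all PEG libraries stood above all water libraries. The dehydrin COR47, the most abundant of the 19, averaged 1963 ± 514 CPM in PEG and 956 ± 192 CPM in water (log2 1.04). In contrast, RAB18 and RD29B, which are markers of ABA-driven expression, were at log2 -0.06 (adjusted p = 0.94) and 0.75 (adjusted p = 0.568). ERD1, a part of the chloroplast Clp protease, fell by 0.71, a call that was lost without PEG A, PEG C, water A or water B (adjusted p = 0.0586 to 0.148). Of the 13 rises 10 held in every such fit, and COR413-PM1, RD20 and COR413IM1 were lost in at least 1 (adjusted p = 0.0755 to 0.216).

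Genes for small protective solutes and sugar release changed at a few steps. P5CS1, the first enzyme of proline synthesis from glutamate, had 44.4, 48.9 and 48.9 CPM in PEG, against 13.4, 23.7 and 23.0 CPM in water (log2 1.26 ± 0.20 SE, adjusted p = 3.70e-04) and was the only one of 5 proline genes called. GOLS3, a galactinol synthase, had 6.68, 6.99 and 9.63 CPM in PEG, against 0.745, 2.37 and 3.83 CPM in water (log2 1.67 ± 0.37 SE, adjusted p = 0.00521), and with TPS11 and RS5 made 3 of 8 tested galactinol, raffinose and trehalose genes higher. TPS11 was lost without water A (adjusted p = 0.0862) and RS5 without PEG A or water B (adjusted p = 0.0646 and 0.0569). BAM3, a chloroplast beta-amylase that breaks starch down to maltose, had 311, 370.4 and 438 CPM in PEG, against 67.5, 70.5 and 80.1 CPM in water (log2 2.36 ± 0.16 SE, adjusted p = 3.26e-08). BAM1, the beta-amylase tied to osmotic stress, had 132, 108 and 112 CPM in PEG, against 54.0, 55.1 and 50.4 CPM in water (log2 1.14 ± 0.15 SE, adjusted p = 3.11e-05). SWEET11, a sucrose exporter, had 25.7, 39.2 and 47.4 CPM in PEG, against 73.4, 70.5 and 66.7 CPM in water (log2 -0.91 ± 0.18 SE, adjusted p = 0.00245), and the other 9 of 12 sugar and starch genes were not called.

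Of 12 tested clock genes 5 were higher, 4 of them evening-phased, and none lower, with a median of log2 1.05. FKF1, a blue-light receptor of the flowering pathway, had 82.1, 98.7 and 115 CPM in PEG, against 15.7, 21.9 and 20.4 CPM in water (log2 2.36 ± 0.18 SE, adjusted p = 8.05e-08). PRR5, an evening-phased repressor, had 112, 104 and 72.6 CPM in PEG, against 19.0, 21.3 and 21.4 CPM in water (log2 2.23 ± 0.18 SE, adjusted p = 9.08e-08). ELF4 and LUX, 2 parts of the evening complex, had 54.4, 65.2 and 97.5 and 153, 136 and 206 CPM in PEG, against 10.1, 17.8 and 13.7 and 48.1, 71.1 and 71.5 CPM in water. RVE1, a morning-type factor, rose by log2 2.71 at levels under 11 CPM. CCA1, GI and TOC1 were at log2 0.33, 0.38 and 0.78 and were not called. By the source names both groups were taken at 1 h, while the titles give water time 0, so a difference in hour of day cannot be told apart from PEG if the titles are right. The 5 calls held with each library left out. Among 9 dark and low-sugar genes, the dormancy genes DRM1 and DRM2 and the F-box gene KMD1 rose by log2 1.36, 1.05 and 1.67 and none fell.

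Jasmonate genes rose in part. Of 15 tested genes of jasmonate synthesis, 6 were higher and none lower, with a median of log2 0.25. AOC1, an allene oxide cyclase, had 97.2, 122 and 117 CPM in PEG, against 41.4, 45.6 and 52.6 CPM in water (log2 1.27 ± 0.16 SE, adjusted p = 2.23e-05), and AOC3 had 77.5, 71.8 and 80.8 CPM in PEG, against 28.0, 34.9 and 34.4 CPM in water (log2 1.24 ± 0.17 SE, adjusted p = 4.90e-05). AOC2, the most abundant of them, had 463, 480.3 and 567 CPM in PEG, against 222, 268 and 265 CPM in water. These 3 held with each library left out, while AOS was lost without water A (adjusted p = 0.0613) and OPR3 without PEG A, water A or water B (adjusted p = 0.113, 0.159 and 0.0826). LOX3 was the only lipoxygenase of 5 tested to be called, with overlapping libraries (73.1, 75.6 and 52.6 CPM in PEG, against 39.9, 53.3 and 35.1 CPM in water), and its call was lost in 4 of the 6 fits, without PEG A, PEG B, water A or water C (adjusted p = 0.12, 0.129, 0.147 and 0.137).

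Genes that respond to jasmonate or break it down were higher for 6 of 17 tested members and lower for none. JOX2, an oxygenase that inactivates jasmonate, had 109, 98.3 and 111 CPM in PEG, against 15.3, 32.6 and 27.8 CPM in water (log2 2.096 ± 0.22 SE, adjusted p = 2.76e-06). CYP94B1, which oxidises the active conjugate, had 21.7, 21.6 and 15.9 CPM in PEG, against 1.12, 4.14 and 4.47 CPM in water (log2 2.62 ± 0.35 SE, adjusted p = 3.95e-05). MYC2, the central jasmonate factor, had 78.5, 59.9 and 39.3 CPM in PEG, against 22.0, 32.6 and 32.5 CPM in water (log2 1.04 ± 0.23 SE, adjusted p = 0.00552), with PEG library C nearest to water. JAZ12 rose by log2 0.89 and JAZ9 by 2.095, JAZ9 at under 6 CPM and lost without water A (adjusted p = 0.0971), and JOX3 was lost in 4 of the 6 fits (adjusted p = 0.0693 to 0.129). JAZ1, JAZ2, JAZ6 and the storage protein gene VSP1 were not called.

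Ethylene response factors split, with 6 of 20 tested members of the ethylene and ERF list higher, 3 lower and a median of log2 0.03. RAP2.6, an ABA- and jasmonate-responsive factor, had 23.4, 26.5 and 21.9 CPM in PEG, against 2.61, 1.78 and 2.87 CPM in water (log2 3.24 ± 0.28 SE, adjusted p = 2.52e-07). RAP2.6L, ERF1, ERF2 and ERF4 rose by log2 1.48, 1.83, 1.10 and 0.90. EBF2 rose by 0.59, a call lost in 4 of the 6 fits (adjusted p = 0.0584 to 0.129). The fallers were ERF105, given above, and its relatives ERF104, with 67.8, 55.5 and 64.8 CPM in PEG, against 208, 184 and 174 CPM in water (log2 -1.60 ± 0.19 SE, adjusted p = 1.15e-05), and ERF6, at log2 -0.83. In ERF104 as in ERF105 all PEG libraries were far below all water libraries.

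Touch, calcium and early wound genes were lower for 5 of 13 tested members and higher for 1, with a median of log2 -0.47. CAF1A, a deadenylase that shortens mRNA tails, had 130.2, 88.9 and 145 CPM in PEG, against 297, 279 and 298 CPM in water (log2 -1.27 ± 0.20 SE, adjusted p = 3.22e-04). SZF1, a salt-inducible zinc finger, had 106, 95.9 and 89.3 CPM in PEG, against 242, 258 and 254 CPM in water (log2 -1.37 ± 0.15 SE, adjusted p = 5.07e-06). PUB23, a ubiquitin ligase, fell by 0.89, and TCH4 and CML37 by 2.26 and 1.66 at under 18 CPM. The TCH4 and CML37 calls were lost without water A (adjusted p = 0.0986 and 0.0671), and the rise of the kinase gene MKK9 (log2 0.57) without water B (adjusted p = 0.0593). TCH3 was at log2 0.16 and was not called.

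Genes known to respond to singlet oxygen were lower for 4 of 6 tested members and higher for none, with a median of log2 -0.84. BAP1, a suppressor of cell death, had 32.7, 24.4 and 34.5 CPM in PEG, against 65.2, 65.1 and 69.5 CPM in water (log2 -1.14 ± 0.21 SE, adjusted p = 0.00145). WRKY40 had 66.1, 52.1 and 61.1 CPM in PEG, against 114, 123 and 112 CPM in water (log2 -0.96 ± 0.16 SE, adjusted p = 4.70e-04). SZF1 belongs to this list too, and the fall of WRKY33 was lost without water A or B (adjusted p = 0.076 and 0.0629). ERF5 and SIB1 were at log2 -0.02 and 0.09. Of the 9 tested members of the WRKY list, 3 were lower and only WRKY15 was higher. WRKY15 had 257, 239 and 255 CPM in PEG, against 139, 139.7 and 157 CPM in water (log2 0.78 ± 0.16 SE, adjusted p = 0.00245). WRKY65, outside the list, was called higher at log2 0.82 but held in only 1 of the 6 fits. Among the ZAT, AZF and SZF zinc fingers 4 of 9 were lower and 2 higher: ZAT6, which is tied to phosphate and cold responses, had 94.5, 100.4 and 112 CPM in PEG, against 34.3, 28.4 and 37.6 CPM in water (log2 1.60 ± 0.19 SE, adjusted p = 1.17e-05), while AZF3 had 49.4, 39.6 and 91.2 CPM in PEG, against 119, 144 and 143 CPM in water (log2 -1.18 ± 0.25 SE, adjusted p = 0.00423) and ZAT7 fell by 2.03. ZAT5 and ZAT10 were lost in 5 and 4 of the 6 fits (adjusted p = 0.0581 to 0.166 and 0.0873 to 0.223).

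Cell wall genes moved both ways, with 7 of 21 tested members lower and 4 higher. Beside EXO and EXL1, EXL3 had 87.2, 88.3 and 77.1 CPM in PEG, against 202, 166 and 153 CPM in water (log2 -1.05 ± 0.15 SE, adjusted p = 1.19e-04), and the xyloglucan endotransglucosylase XTH23 had 69.1, 33.5 and 57.4 CPM in PEG, against 132, 173 and 109 CPM in water (log2 -1.38 ± 0.26 SE, adjusted p = 0.00217). Expansins, which loosen walls, were 3 of the 4 risers. EXPA6, an expansin outside the list, was lower, at log2 -2.19, and held in all 6 fits with a library left out. EXPA10 had 70.8, 74.3 and 88.2 CPM in PEG, against 19.0, 21.9 and 24.2 CPM in water (log2 1.83 ± 0.16 SE, adjusted p = 2.66e-07), and EXPA1 had 257, 257 and 351 CPM in PEG, against 132, 116 and 153 CPM in water (log2 1.10 ± 0.17 SE, adjusted p = 2.30e-04). XTH15 and EXPA11 were lost without water A (adjusted p = 0.0606 and 0.0536).

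Other lists had few or no called genes at this hour. Of 33 nuclear photosynthesis genes tested only PSBX was called, with 187, 767 and 769 CPM in PEG, against 3215, 2274 and 1464 CPM in water, and it was lost without PEG B, PEG C, water A or water B (adjusted p = 0.0588 to 0.127). The list median was log2 0.07. The ferredoxin gene FED A, outside the list, was called lower, at log2 -0.82, and held in all 6 fits with a library left out. Aquaporins had 1 lower of 17, PIP2;8, which was lost without PEG A, PEG C or water A (adjusted p = 0.0727, 0.0553 and 0.204). PIP2;6, which was not called, had 595, 496 and 824 CPM in PEG, against 365, 551 and 484 CPM in water. The auxin list had 1 lower of 12, the influx carrier AUX1. It had 11.4, 13.8 and 10.4 CPM in PEG, against 26.1, 27.8 and 18.5 CPM in water (log2 -0.99 ± 0.21 SE, adjusted p = 0.00462). Its relative LAX2, outside the list, was called lower, at log2 -1.82, and held in 4 of the 6 fits with a library left out. Among 14 brassinosteroid and gibberellin genes the DELLA repressor RGL3 had 14.0, 13.3 and 14.1 CPM in PEG, against 1.49, 3.55 and 5.10 CPM in water (log2 1.99 ± 0.32 SE, adjusted p = 3.65e-04), while BRI1, the brassinosteroid receptor, fell by 1.74, a call lost without water A (adjusted p = 0.104).

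Heat shock genes had 1 of 9 higher, HSFB2A, and antioxidant genes 1 higher, GPX6, and 1 lower, CAT2, of 12, each lost in at least 1 of the 6 fits (adjusted p = 0.0555 to 0.125). CAT2, the main leaf catalase, had 219.7, 277 and 244 CPM in PEG, against 478, 549 and 289 CPM in water and was lost without water B (adjusted p = 0.0555). The wax regulator MYB94 was the only one of 9 wax genes called (log2 0.97 ± 0.21 SE, adjusted p = 0.00546). The chlorophyll list had 2 lower of 10, GUN4 and CRD1. The oxygen sensing list had 1 higher, PDC2, and 1 lower, HRA1, of 10. All 4 were lost in at least 3 of the 6 fits (adjusted p = 0.0556 to 0.231). HEMB1 and LIN2, genes of chlorophyll synthesis outside the list, were called lower, at log2 -0.52 and -0.76. They held in 4 and 3 of the 6 fits. The cytokinin list had 2 higher of 6 (33.3%, beside 7.2% of all genes tested), CRF5 and CRF6. Both were lost without water A or B (adjusted p = 0.0525 to 0.0895), and CRF5 also without PEG A or PEG C (adjusted p = 0.0514 and 0.0921). Their relatives CRF7 and CRF8, outside the list, were called higher, at log2 1.54 and 1.41, and held in 5 and 6 of the 6 fits. Phenylpropanoid genes had 2 higher of 11, PAL2 and UGT78D2, of which PAL2 was lost in 3 fits (adjusted p = 0.0783 to 0.135). Among genes of RNA quality, handling stress and cell death, 1 of 6 was called, the vacuolar protease gene VPE3, with 2.00, 6.99 and 8.15 CPM in PEG, against 26.8, 18.9 and 9.89 CPM in water, lost without water A or B (adjusted p = 0.118 and 0.0532).

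Promoters were read for elements that the factors above are known to bind. A window of 250 bases before to 50 after the annotated start of each gene was searched on both strands for 5 motifs. The core of the ABRE was written as ACGTG. The G-box, which contains that core, was written as CACGTG. The DRE core was searched as CCGAC and the W-box core as TTGAC. The evening element of clock-controlled genes was searched as AAAATATC. ACGTG was present in 38% of the 663 rises, 24.8% of the 475 falls and 28.8% of the 9161 tested genes with a promoter. CCGAC was present in 20.5% of the rises, 12.2% of the falls and 16.3% of all tested genes. The evening element was present in 13.1%, 7.37% and 7.98%, and the W-box core in 51.1%, 52.8% and 50.4%. These shares are descriptions without a test, and a match is not a bound site.

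Among the 116 rises that were higher still at 3 h, ACGTG was in 50% and the evening element in 21.6%, while among the 26 rises that were lower at 3 h than at 1 h these shares were 30.8% and 11.5%. Over all 14457 genes of the deposited table with a promoter, ACGTG was in 28.8%, CACGTG in 9.3%, CCGAC in 16.1%, AAAATATC in 7.39% and TTGAC in 50.4%.

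The 250 bases before the start are shown for 5 rises and 1 fall chosen, after their values were seen, because they hold the elements in different mixtures. They come from RefSeq's TAIR10.1 genome and annotation, which may not be the build of the deposited counts, and run 5′ to 3′ on the strand of the gene with matches to any of the motifs, on either strand, in capitals. RD26 lies at chr4:13709171-13709420, minus strand, ERF53 at chr2:8985709-8985958, plus strand, RD29A at chr5:21240467-21240716, plus strand, COR15A at chr2:17712331-17712580, minus strand, LUX at chr3:17182792-17183041, plus strand and SZF1 at chr3:20775970-20776219, plus strand.
RD26: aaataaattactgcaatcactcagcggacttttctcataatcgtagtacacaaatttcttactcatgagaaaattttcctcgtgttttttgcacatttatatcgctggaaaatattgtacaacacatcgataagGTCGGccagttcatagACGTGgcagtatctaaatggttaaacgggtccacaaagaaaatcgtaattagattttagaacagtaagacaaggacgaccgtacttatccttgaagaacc
ERF53: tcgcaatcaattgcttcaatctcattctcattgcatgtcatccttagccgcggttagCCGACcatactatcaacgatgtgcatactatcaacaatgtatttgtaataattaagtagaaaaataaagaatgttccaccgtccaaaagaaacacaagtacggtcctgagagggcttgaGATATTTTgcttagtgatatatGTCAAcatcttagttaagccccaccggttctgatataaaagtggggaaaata
RD29A: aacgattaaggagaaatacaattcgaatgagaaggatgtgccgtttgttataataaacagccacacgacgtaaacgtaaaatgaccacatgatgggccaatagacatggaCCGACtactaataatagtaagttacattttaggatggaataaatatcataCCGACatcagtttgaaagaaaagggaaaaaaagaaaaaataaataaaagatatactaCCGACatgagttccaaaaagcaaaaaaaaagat
COR15A: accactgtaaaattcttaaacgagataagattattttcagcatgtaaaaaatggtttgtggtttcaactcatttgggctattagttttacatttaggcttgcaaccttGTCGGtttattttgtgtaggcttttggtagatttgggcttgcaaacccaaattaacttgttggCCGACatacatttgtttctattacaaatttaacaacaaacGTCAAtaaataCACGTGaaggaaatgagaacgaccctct
LUX: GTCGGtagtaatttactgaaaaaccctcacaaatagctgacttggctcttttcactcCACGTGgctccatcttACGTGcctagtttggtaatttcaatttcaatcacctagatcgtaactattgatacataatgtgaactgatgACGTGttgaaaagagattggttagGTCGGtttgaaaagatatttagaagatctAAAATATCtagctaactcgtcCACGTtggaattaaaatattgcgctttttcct
SZF1: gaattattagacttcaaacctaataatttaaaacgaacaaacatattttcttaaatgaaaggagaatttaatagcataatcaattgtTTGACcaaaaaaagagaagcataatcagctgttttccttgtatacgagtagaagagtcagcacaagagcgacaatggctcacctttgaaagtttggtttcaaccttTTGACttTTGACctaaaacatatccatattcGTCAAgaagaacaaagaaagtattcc
RD26 held 1 ACGTG and 1 CCGAC in this stretch. RD29A held 3 CCGAC and no ACGTG. COR15A held 2 CCGAC and 1 W-box core beside its G-box, which reads as ACGTG on both strands. LUX held 5 matches to ACGTG, including those in its 1 G-box, 2 to CCGAC and 1 evening element. ERF53 held 1 CCGAC, 1 evening element and 1 W-box core. SZF1, which fell, held 4 W-box cores and none of the other motifs.

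For most genes called at 1 h no difference between 1 h and the later times was called. Against PEG 1 h, 156 of 9207 genes were called at 2 h (1.69%), 118 higher and 38 lower, and 426 at 3 h (4.63%), 246 higher (2.67%) and 180 lower (1.96%), and 243 of the 426 had an absolute log2 of at least 1 (2.64%), of which 95 were lower (1.03%). The counts at 2 h rested on single libraries: 15 to 36 genes were higher without PEG 1 h A or any 1 of the PEG 2 h libraries, and 183 without PEG 1 h C, while 134 were lower without PEG 1 h B, 24 without PEG 1 h C and 1 to 8 without any 1 of the others. Scaling by library totals moves the median of all genes at 2 h to log2 0.17 and makes 90.2% of the calls higher, against 75.6% with TMM. The later libraries also differ from 1 h in hour of day and time in liquid. The genes described next were drawn from 116 of the 663 rises that were higher still at 3 h, 26 that had come down, 21 of the 475 falls that were lower still and 9 that had come back up. The PEG 1 h libraries enter both comparisons, so these sizes describe the classes and are no result. At 3 h the number of genes higher than at 1 h was 150 to 161 without PEG 1 h A, PEG 3 h B or PEG 3 h C, and the number lower was 87 to 105 without any 1 of the PEG 3 h libraries.

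Among the rises that went on, COR15B averaged 4.76 CPM in water and 39.3, 119 and 340.3 CPM at 1, 2 and 3 h in PEG (log2 3.12, adjusted p = 1.41e-06 for 3 h over 1 h). GOLS3 averaged 7.77, 25.2 and 72.4 CPM at these times (log2 3.25, adjusted p = 2.48e-07), and the pectin lyase-like gene AT1G48100 4.21, 14.1 and 40.9 CPM (log2 3.25, adjusted p = 2.48e-07). AT1G70640, a PB1-domain gene, had 15 counts in PEG at 1 h and 1 in water, a ratio of 10.8 with a 95% counting interval from 1.66 to 455, and averaged 1.58, 7.81 and 17.39 CPM at the 3 times. RD29A averaged 137 CPM in water and 703, 1255 and 2578 CPM at 1, 2 and 3 h (log2 1.88, adjusted p = 1.82e-06), and EXPA10, P5CS1 and ABF1 stood at 232, 161 and 96.1 CPM by 3 h. AT1G70640 was lost at 1 h without PEG A, PEG C, water A or water B (adjusted p = 0.0803 to 0.168).

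Other rises were brief or level. ORA59, an ERF factor that joins jasmonate and ethylene signals, averaged 17.8 CPM in water and 50.6, 26.5 and 16.1 CPM at 1, 2 and 3 h in PEG (log2 -1.67, adjusted p = 6.08e-05). AT5G14730, uncharacterised, averaged 13.9 CPM in water and 61.6, 29.0 and 16.8 CPM at these times (log2 -1.85, adjusted p = 4.13e-04), and NAI1, a factor of ER body formation, 8.36 CPM in water and 28.5, 15.4 and 11.6 CPM (log2 -1.33, adjusted p = 0.00453). The metal-binding gene AT5G03380 was at 89.3, 55.4 and 33.1 CPM (log2 -1.44, adjusted p = 1.87e-04). LSU1 to LSU3, NCED3 and PRR5 were not called at 3 h against 1 h. NCED3 averaged 14.7, 14.6 and 18.5 CPM over the 3 times.

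**Figure D4:**
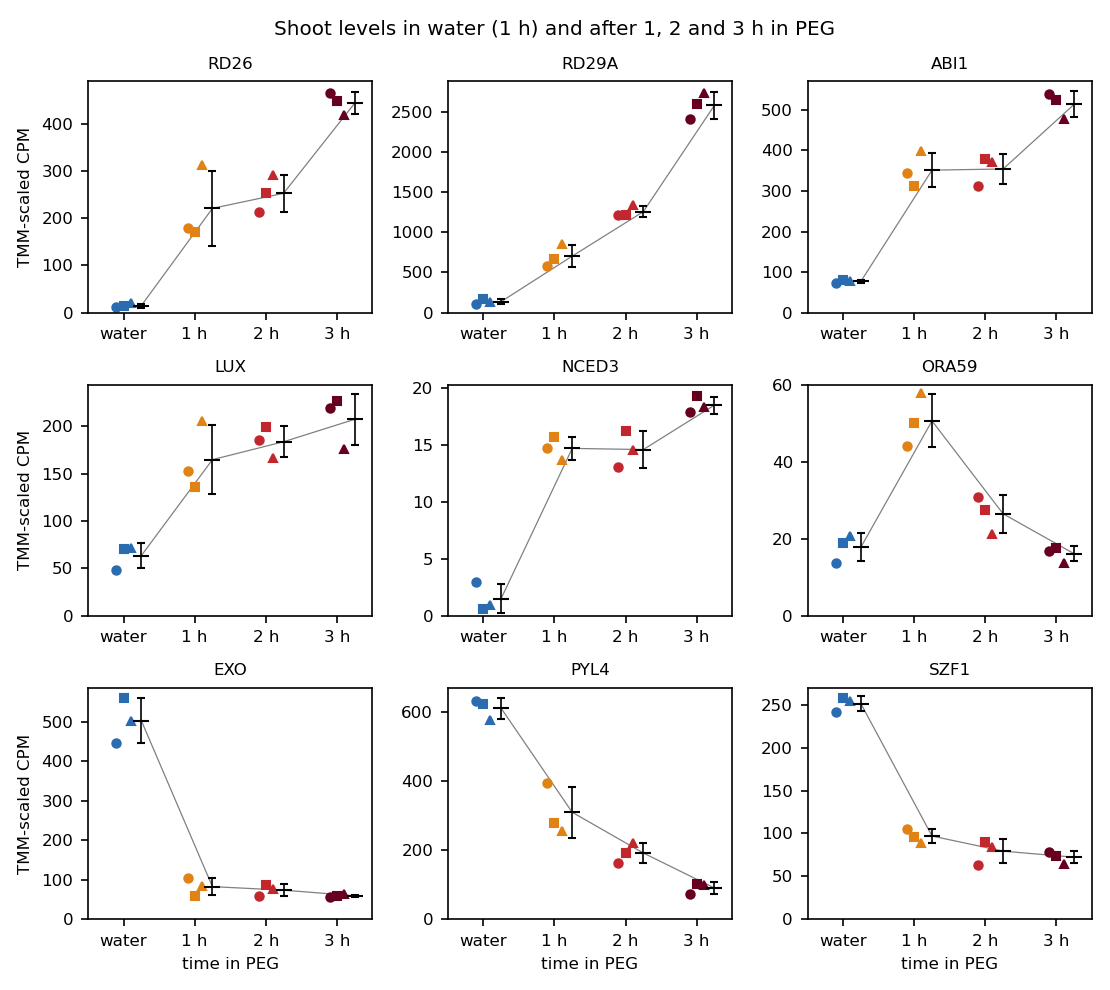
Shoot levels (TMM-scaled CPM, linear axes from 0) of 9 genes in water at 1 h and after 1, 2 and 3 h in PEG. Symbols mark replicates A, B and C and black bars the mean ± SD of 3; RD26, RD29A and ABI1 are higher at 3 h than at 1 h, ORA59 peaks at 1 h, EXO and SZF1 stay low and PYL4 keeps falling.

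Falls that deepened included both receptor genes. PYL4 averaged 309.6, 192 and 90.0 CPM at 1, 2 and 3 h (log2 -1.76, adjusted p = 9.22e-06), and PYL6 63.5, 30.8 and 17.1 CPM (log2 -1.85, adjusted p = 5.44e-05). AZF3 averaged 60.1, 23.4 and 17.35 CPM (log2 -1.82, adjusted p = 9.80e-04). AT2G26440, a pectin methylesterase gene whose 1 h call was lost without PEG A, PEG C, water A or water B (adjusted p = 0.052 to 0.119), was at 9.16, 11.1 and 2.403 CPM. The 4 largest returns were small or thinly counted at 1 h. AT4G14200, a pentatricopeptide repeat gene, averaged 5.18 CPM in water and 1.63, 3.36 and 5.87 CPM at 1, 2 and 3 h (log2 1.70, adjusted p = 0.0206). The 1 h falls of the other 3, PYE, AT1G73600 and AT5G09570, were lost in at least 4 of the 6 fits (adjusted p = 0.0553 to 0.165).

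A set of 55 falls was called higher again at 2 h, in a comparison that shares the PEG 1 h libraries with the first. Their median level, on the log2 scale against the water mean, was 0.38, -0.0028 and -0.29 in water A, B and C and -1.81, -0.85 and -1.04 in PEG 1 h A, B and C. At 2 h it was -0.02, 0.09 and 0.26, and at 3 h -0.25, -0.47 and -0.76. PEG 1 h A was the lowest of the 3 for 47 of these genes (85.5%) and water A the highest of its group for 43 (78.2%). Such shares were not counted for other genes. The other 420 falls leaned the same way, with medians of 0.15, 0.03 and -0.19 in water A, B and C. In PEG 1 h A, B and C their medians were -1.33, -0.92 and -0.94. Both groups were thus spread within themselves for the 55 falls. Of these 55, 17 were called in all 6 fits with a library left out, beside 121 of all 475 falls (25.5%). The part of the libraries in this pattern was not tested.

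**Figure D5:**
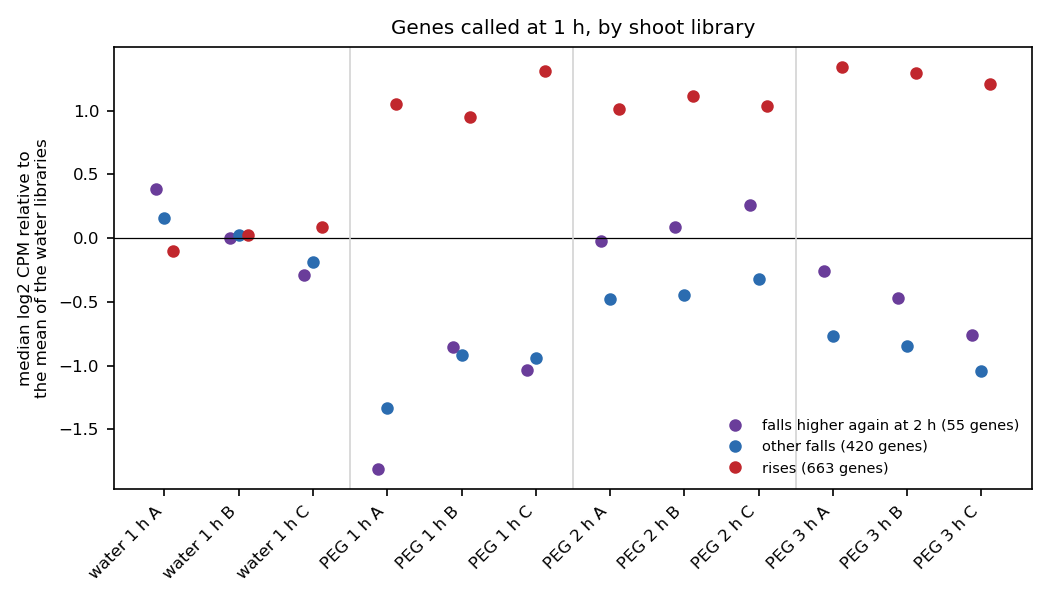
Median level of 3 sets of genes called at 1 h in each shoot library, as log2 CPM relative to the mean of the water libraries: the 55 falls called higher again at 2 h (purple), the other 420 falls (blue) and the 663 rises (red). The rises lie between 0.95 and 1.31 in the PEG 1 h libraries, whereas the 55 falls lie lowest in PEG 1 h A and spread from 0.38 to -0.29 within water. The other falls are also lowest in PEG 1 h A, at -1.33, and run from 0.15 to -0.19 within water.

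Fewer genes were called in root at the same hour. In the 6 root libraries of 1 h, 46 of 9751 genes were called (0.472%), 16 higher and 30 lower, in a fit with a biological coefficient of variation of 34.2%, beside 17.2% in shoot. Without root PEG B, root PEG C, root water A or root water B, 1 to 3 genes were called in root, and 21 without root water C. Of the 1138 genes called in shoot, 13 were also called in root, all in the same direction. The difference itself, shoot change minus root change, was called for 146 of 10967 genes (1.33%), 120 higher in shoot (1.09%) and 26 lower (0.237%), each by an absolute log2 of at least 1. Scaled by library totals, the contrast has a median of log2 -0.52, against -0.07 with TMM, and 57.9% of the calls are higher in shoot, against 82.2%. In root, library totals make 48.5% of the calls higher, against 34.8%, with a median of log2 0.41, against 0.13. Leaving out 1 library gave 44 to 119 genes higher and 3 to 123 lower, with the fewest of both without shoot water A and 123 lower without root PEG C. The number higher was 60 to 79 without shoot PEG A, shoot PEG C, shoot water B or root PEG B, and the number lower 6 to 15 without any 1 of the other shoot libraries or root PEG B, root water B or root water C. Of the shoot-called genes, 101 had a significantly higher change in shoot and 19 a lower one.

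Levels given for both organs are on the TMM scaling of all 24 libraries, which sets shoot levels higher than the shoot-only scaling used above. The change of ERF53 differed between organs, with 50.8 CPM in shoot PEG and 2.76 CPM in shoot water, and 0.516 CPM in root PEG and 1.28 CPM in root water (difference 5.60 ± 0.90 SE, adjusted p = 0.00123). It had 5 counts over the 3 root PEG libraries and 10 over the 3 root water libraries. ABI1 had 436 CPM in shoot PEG and 90.6 CPM in shoot water, and 119 CPM in root PEG and 121 CPM in root water (difference 2.27 ± 0.32 SE, adjusted p = 3.60e-04). FKF1 had 122 CPM in shoot PEG and 22.8 CPM in shoot water, and 11.3 CPM in root PEG and 28.1 CPM in root water (difference 3.69 ± 0.56 SE, adjusted p = 8.77e-04). In these 3 the root groups lay near each other or ran the other way. RAP2.6 was already at 58.4 CPM in root water and 50.0 CPM in root PEG (difference 3.56 ± 0.61 SE, adjusted p = 0.00241). JOX2 had 132 CPM in shoot PEG and 29.7 CPM in shoot water, and 22.6 CPM in root PEG and 21.1 CPM in root water (difference 2.08 ± 0.37 SE, adjusted p = 0.00347). ATAF1 had higher levels in PEG in both organs, with 1017 CPM in shoot PEG and 91.1 CPM in shoot water, and 475 CPM in root PEG and 177 CPM in root water, and its change was larger in shoot (difference 2.05 ± 0.44 SE, adjusted p = 0.0161). That difference was lost without shoot water A (adjusted p = 0.0697), while those of ERF53, ABI1, FKF1, RAP2.6, JOX2 and EXO held with each of the 12 libraries left out. EXO had 103 CPM in shoot PEG and 592 CPM in shoot water, and 329 CPM in root PEG and 469 CPM in root water, and its fall was larger in shoot (difference -2.01 ± 0.34 SE, adjusted p = 0.00225). The root change of RD26, log2 2.61 (adjusted p = 0.0243), was not shown to differ from its shoot change (adjusted p = 0.178 for the difference).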

How the data were processed

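Shoot and root RNA of ulox seedlings was counted by MARS-seq in 24 libraries, 3 in each of 8 groups taken from the source names. The tissue field, which reads root throughout, was not used. The deposited table holds the authors' raw counts per gene and library, without normalization, and its deposited log2 fold change and adjusted p-value of this comparison run water over PEG, per the file headers. 48 other per-sample columns were not used. Per the submitters' processing notes, the tools were STAR 2.4.2a, cutadapt, bcl2fastq, DESeq2 and HTSeq, in an order and with settings not given in the sources used here. The genome build, strand in counting and use of molecular identifiers are likewise not stated, so overlapping genes on opposite strands cannot be told apart.

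From the counts, in R 4.3.3, edgeR 4.0.16 (filterByExpr, TMM scaling, robust quasi-likelihood test, two-sided, Benjamini-Hochberg adjustment) was fitted to the 12 shoot libraries, the 12 root libraries and all 24. A gene was called at an adjusted p under 0.05. Levels are TMM-scaled CPM, with the SD over 3 libraries. Beyond the label "biological replicate" nothing says how replicates were grown. Names came from TAIR10.1, which matched 14457 of 14557 genes; 67 chloroplast and 33 mitochondrial codes were not matched. Named genes were the 12 largest rises and falls (mean count at least 20, no overlap), 2 per list by adjusted p, the 4 largest later changes of each kind and the 4 largest organ differences each way. Members, lists and rule were chosen with earlier results of these data known. In simulated data the test found 100% of genes changed by log2 2 or -2, 60% at log2 1, 59.2% at -1, and 0.0913% of unchanged genes. The simulation gave every gene the same spread and no trend along gene length, so these shares are not error rates of the real libraries. Counting intervals and the floor of 3 counts cover counting error only. The counts of any 2 replicates differed beyond counting noise (chi-square per degree of freedom 4.15 to 14.1). Alternatives were DESeq2 1.42.0, library totals, other filters, other sets of libraries, a replicate block, leaving out single libraries and, chosen after seeing the data, removing a gene length trend and leaving out both C libraries.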

Additional observations from a re-analysis of the deposited data

Results flagged for a closer look

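Of the named genes, 25 had a change at 1 h that differed between shoot and root by the test of the difference itself (edgeR quasi-likelihood, all 24 libraries). All 25 kept their sign with library totals, and 16 stayed past the threshold. Values are the shoot change minus the root change on the log2 scale, and levels are on the TMM scaling of all 24 libraries.

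The change was higher in shoot for 16 of them. ERF53, FKF1, RAP2.6, ABI1, JOX2 and ATAF1, given above, had differences of 5.60, 3.69, 3.56, 2.27, 2.08 and 2.05. AT4G18650, a transcription factor-like gene, had the value 6.78, on 35 counts in shoot PEG and 2 in shoot water, and 2 in root PEG and 13 in root water. Its shoot ratio was 12.6, with a 95% counting interval from 3.24 to 108. AT5G19230, coding for a membrane glycoprotein precursor, had 4.19 on 45 and 3 counts in shoot PEG and shoot water and 15 and 19 in root PEG and root water, a shoot ratio of 10.8 with an interval from 3.47 to 54.4. AT4G25433, a LysM-domain gene, had 4.197 and AT5G14730 had 3.05. RGL3 had 2.197, ZAT6 1.96, AT2G44130 1.95, DRM1 1.87, PRR5 1.74 and RAP2.4 1.28. ATAF1, JOX2, RGL3, PRR5 and RAP2.4 were not called with library totals.

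The change was lower in shoot for the other 9. EXO had -2.01, ERF105 -2.00, AT4G27280 -1.90 and AT1G33760 -3.19. In root AT1G33760 was thinly counted, with 13 counts in root PEG and 10 in root water. WRKY18 had -3.59, the NAC factor NAC062 -3.52, the helicase gene NIH -3.95 and HRA1, a repressor of low-oxygen responses, -2.25. These 4 fell in shoot and had higher levels in root PEG than in root water, WRKY18 with 14.9 and 5.37 CPM, and none of the 4 was called with library totals. The aldolase gene FBA7 had -5.10, a fitted value that depends on the prior count, since it had 23 counts in root PEG and 0 in root water. With 1 of the 12 libraries left out at a time, 11 of the 25 were called in every fit, among them ERF53, FKF1, ABI1, JOX2 and EXO. The other 14 were all lost without shoot water A, ATAF1 and AT5G19230 there only (adjusted p = 0.0697 and 0.067), RGL3 also without root PEG B (adjusted p = 0.0511) and ZAT6 also without root PEG B or shoot water B (adjusted p = 0.0636 and 0.0597). FBA7, AT1G33760, PRR5, ERF105, NIH and WRKY18 were called in 7, 6, 5, 4, 4 and 3 of the 12 fits, while AT4G27280, HRA1, RAP2.4 and NAC062 were called in 2, 2, 2 and 1 of 12.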

How the results depend on the processing

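No called value of a named gene changed sign under the alternatives run, while 4 named genes that were not called did, as did the medians of 14 lists, among them ethylene and ERF factors (log2 0.03, at lowest -0.14) and nuclear photosynthesis genes (log2 0.07, at lowest -0.05). The balance of calls turned in several: 556 rises and 566 falls at 1 h with library totals, 613 and 624 without both C libraries, 26 higher and 17 lower in root without root PEG A, and 115 and 123 for shoot minus root without root PEG C. Of the 93 named genes called at 1 h, 53 were called under every alternative, and over all named genes and alternatives 1431 values kept their side of the threshold, 181 lost and 19 gained it. Fitted on the 6 libraries alone, PEG 1 h against water gave 399 rises and 212 falls, and in 1 fit of all 24 libraries 409 rises, 79 falls and 429 genes at an absolute log2 of at least 1. With the gene length trend removed, 1087 of the 1138 calls remained. Median gene length was 1829 bases for rises, 2381 for falls and 2500 for genes not called. Leaving out 1 library gave 451 to 703 rises, 155 to 635 falls and 439 to 913 genes at an absolute log2 of at least 1. DESeq2, both filters on low counts, the length correction and leaving out both C libraries kept each of these counts within 1.5 times.

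With library totals, 405 genes were higher at 2 h than at 1 h and 284 passed the log2 limit, 17 were lower in root, and 44 had a higher change in shoot than in root, with 75 past the log2 limit. Leaving out 1 library gave, for 2 h against 1 h, 15 to 183 higher, 1 to 134 lower and 17 to 181 past the log2 limit; for 3 h against 1 h, 150 to 325, 87 to 222 and 178 to 282; in root, 0 to 26, 1 to 19 and 1 to 43; and for shoot minus root, 44 to 119, 3 to 123 and 47 to 238.

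Over all genes, the deviations of PEG and water libraries with the same letter had a median correlation of -0.09, from -0.16 to 0.12, which fell short of pairing for A and B, although the trend along gene length was alike within each letter of these 2 groups. With the letter as a replicate block, 313 genes were lower at 1 h, 37 higher, 7 lower and 38 past the log2 limit at 2 h against 1 h, and 11 lower in shoot than in root. The cause of these shifts was not tested.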

Other observations

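Genes of sulfur assimilation moved both ways. They belong to no list, were chosen after their values were seen and were not tested as a group. APR3, an APS reductase that commits sulfate to reduction, had 109, 150.3 and 156 CPM in PEG, against 19.4, 18.4 and 22.3 CPM in water (log2 2.78 ± 0.18 SE, adjusted p = 3.15e-08). APR1 had 40.1, 61.4 and 46.3 CPM in PEG, against 11.6, 5.33 and 7.34 CPM in water (log2 2.57 ± 0.25 SE, adjusted p = 1.10e-06), and APR2 had 101, 99.3 and 118 CPM in PEG, against 55.2, 61.0 and 53.3 CPM in water (log2 0.91 ± 0.15 SE, adjusted p = 5.63e-04). None of the 3 genes overlapped between groups, and their calls held with each library left out. AT1G04770, of the SDI family named for induction by sulfur deficiency, had 11.0, 18.4 and 34.5 CPM in PEG, against 3.73, 1.78 and 2.55 CPM in water (log2 2.90 ± 0.40 SE, adjusted p = 6.88e-05). ATSDI1, of the same family, had 46 counts over the PEG libraries and 2 over the water libraries, a ratio of 16.6 with a 95% counting interval from 4.34 to 141. LSU4 had 4.67, 3.60 and 6.67 CPM in PEG, against 1.49, 1.18 and 1.91 CPM in water, and its call was lost without PEG A, PEG C, water A or water B (adjusted p = 0.0505 to 0.0927). Other steps of the pathway were mixed. SERAT2;1, a serine acetyltransferase, had 327, 295 and 405 CPM in PEG, against 89.8, 93.0 and 96.0 CPM in water (log2 1.88 ± 0.15 SE, adjusted p = 1.28e-07), and SERAT2;2 was at log2 0.46. CS26 and OASA1, genes of the cysteine synthase family, were lower, at log2 -1.22 (adjusted p = 0.0141) and -0.60 (adjusted p = 0.0431). All 3 of SERAT2;2, CS26 and OASA1 were lost without PEG A or water A (adjusted p = 0.0587 to 0.197), OASA1 and SERAT2;2 also without water B (adjusted p = 0.0972 and 0.0645) and SERAT2;2 without PEG B (adjusted p = 0.0705). Neither APS1 nor SIR was called: ATP sulfurylase APS1 had 330.2, 321 and 328 CPM in PEG, against 238, 287 and 285 CPM in water (adjusted p = 0.242) and sulfite reductase SIR had 141, 143 and 141 CPM in PEG, against 141, 146 and 161 CPM in water (adjusted p = 0.785). At 1, 2 and 3 h in PEG, APR1 averaged 49.3, 77.9 and 90.6 CPM (3 h over 1 h log2 0.89, adjusted p = 0.0136) and APR3 139, 192 and 186 CPM (3 h over 1 h log2 0.43, adjusted p = 0.141). In root, PEG against water gave log2 1.49 for APR3 (adjusted p = 0.109) and 2.54 for LSU3 (adjusted p = 0.0791), and the difference between organs was not called for either (adjusted p = 0.0996 and 0.0615).

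Other large changes outside the lists, also picked after their values were seen, included PPCK1, the kinase of phosphoenolpyruvate carboxylase, with 16.7, 15.7 and 17.42 CPM in PEG, against 1.49, 2.37 and 1.91 CPM in water (log2 3.12 ± 0.32 SE, adjusted p = 2.35e-06). CLH1, a chlorophyllase, had 104, 125 and 126 CPM in PEG, against 20.1, 22.5 and 34.4 CPM in water (log2 2.18 ± 0.22 SE, adjusted p = 1.82e-06), and the glucosyltransferase gene UGT73B1 had 197, 174 and 251 CPM in PEG, against 33.9, 49.1 and 53.0 CPM in water (log2 2.19 ± 0.19 SE, adjusted p = 2.46e-07). ORA47, a factor of the jasmonate and ABA pathways, had 43.4, 37.9 and 58.9 CPM in PEG, against 10.8, 5.33 and 8.93 CPM in water (log2 2.42 ± 0.30 SE, adjusted p = 1.83e-05) and rose in root too, by log2 2.71 (adjusted p = 0.0119). Among falls, GPAT3, a glycerol-3-phosphate acyltransferase, had 0.668, 0.635 and 1.48 CPM in PEG, against 19.0, 10.7 and 5.10 CPM in water (log2 -3.66 ± 0.69 SE, adjusted p = 0.00195) and NUDT4, a nudix hydrolase, had 0.668, 0.635 and 1.85 CPM in PEG, against 12.3, 7.70 and 6.06 CPM in water (log2 -3.11 ± 0.52 SE, adjusted p = 5.03e-04). AT1G05183, annotated only as other RNA, had 22 counts over the PEG libraries and 0 over the water libraries, at least 5.29-fold higher against a floor of 3 counts over the group. The genes of this paragraph stayed called with each library left out.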
